A study of Homo sapiens with 6 samples.

Results

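The expressed antisense RNAs of H2122 cells were examined by RNA-seq in cells without SMARCA4 and in parental cells, each beside the sense gene it is named after. H2122 is a human lung cancer cell line, and SMARCA4 encodes BRG1, an ATPase that drives SWI/SNF chromatin remodelling. The RNAs were chosen by symbol and measured level: the symbol ends in -AS1 and the mean over the 6 libraries is at least 1 CPM (CPM is the count scaled to a common total of reads on genes, counts-per-million). The level alone is therefore not a finding. Of 59050 symbols, 1114 end in -AS1: 280 had no read, 607 had reads below that level, and 227 were at or above it. The knockout group holds 3 libraries of H2122 with genotype SMARCA4 KO, and the parental group holds 3 libraries of H2122 labelled WT. Cells of both groups received vehicle and grew in the same serum-supplemented RPMI-1640 medium. The titles of all 3 knockout libraries carry the same sample number, 1, while those of the parental libraries carry 3 different ones. The labels do not say whether the knockout is 1 clone, nor that the libraries of a group are separate cultures. The p-values then reflect the spread among these 6 libraries, which may be technical.

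An antisense RNA is transcribed from the strand opposite to another gene, and the suffix -AS1 names it after that gene. Many start beside the promoter of the sense gene and run away from it, in a head-to-head layout, because promoters of mammalian genes often fire in both directions. Others overlap the end of the sense gene or lie within it, and from studies of single loci some are known to act on the neighbouring gene while others are by-products of its promoter.

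The 6 libraries held 55120937 to 59917980 reads counted on genes, and 13.8% to 15.3% of all counted reads were assigned to no gene. A count of 3 reads corresponded to 0.0501 to 0.0544 CPM, which limits what could be detected, by counting error only. SMARCA4 had 20.7, 19.3 and 24.9 CPM in the knockout libraries, against 231, 214 and 335 CPM in the parental libraries, a log2 fold change of -3.59 ± 0.22 (SE, adjusted p = 0.000176). Parental replicate 3 stood apart. It was the highest or the lowest of the 3 parental libraries in 202 of the 227 antisense RNAs and differed at least 2-fold from the mean of the other 2 in 52 of them, while parental replicates 1 and 2 differed that much in 0. Of the cell type markers, the summed level of 6 epithelial genes was 3155 to 3420 CPM in the knockout libraries and 6927 to 7696 CPM in the parental libraries, and 5 of the 6 fell. The 5 haematopoietic markers summed to at most 0.248 CPM in knockout and 0.299 CPM in parental libraries, with PTPRC at 0 reads. Of the 4 lung lineage markers only NAPSA was tested, and it did not pass, with means of 1.18 CPM in knockout and 0.830 CPM in parental libraries. NKX2-1, SFTPB and SFTPC were not tested. NKX2-1 had 1 read in the knockout and 37 reads in the parental libraries in all. The 5 fibroblast markers summed to 53.3 to 58.0 CPM in the knockout libraries and 39.2 to 110 CPM in the parental libraries, a sum that hides opposite changes. LUM averaged 26.8 CPM in knockout and 0.368 CPM in parental libraries and COL3A1 averaged 5.09 CPM in knockout and 0.158 CPM in parental libraries, and both rose (adjusted p = 8.98e-06 and 0.00562). COL1A1 fell to 23.5 CPM in knockout, against 64.5 CPM in parental libraries (adjusted p = 0.0408). The 4 endothelial markers summed to 0.907 to 1.40 CPM in knockout and 0.510 to 0.560 CPM in parental libraries. CDH5 rose (log2 fold change 2.74, adjusted p = 0.0147), while PECAM1 did not pass (adjusted p = 0.143). VWF had 7 reads in the knockout and 39 reads in the parental libraries in all. KDR had 5 and 11 reads, and neither of these genes was tested. In these bulk samples, fewer cells of a type and less RNA per cell cannot be told apart.

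The library kit named in the labels is not stated to keep strand. Whether reads from both strands can be told apart where exons of an antisense RNA and another gene overlap is therefore not known. By GENCODE 29 positions on GRCh38, matched by symbol, 160 antisense RNAs share exon bases with their partner, 39 share none with any gene, and 13 share at least 50% of theirs. The median share was 8.69% of the exon bases.

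Most expressed antisense RNAs were scarce. Their median level was 3.33 CPM over the 6 libraries, 155 reached 2 CPM and 46 reached 10 CPM. Of the 227, 196 reached 1 CPM on average in both groups, 22 in the knockout libraries alone and 9 in the parental libraries alone. The last 31 owe their place to the group where they were high, so the direction of their change is tied to the rule. Among those described below, VIM-AS1, BASP1-AS1, A2M-AS1, RASSF8-AS1, SCOC-AS1, SP2-AS1 and ENTPD3-AS1 reached 1 CPM in the knockout libraries alone. SH3PXD2A-AS1 and C2CD4D-AS1 reached it in the parental libraries alone. The annotation holds 218 of the 227, of which 157 are typed antisense, 29 processed transcript and 27 lincRNA, and the rest as pseudogenes. The values at the edge of the rule were 1.0095, 1.0047 and 1.0041 CPM for ARRDC3-AS1, SMC5-AS1 and TRAF3IP2-AS1 inside it. PTOV1-AS1, PRKAG2-AS1 and SLC5A4-AS1, at 0.9887, 0.9851 and 0.9788 CPM, fell just outside.

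In the knockout, 44 of the 227 antisense RNAs rose, 14 fell and 169 did not pass an adjusted p of 0.05 in edgeR's quasi-likelihood test over 17809 genes. The 58 that passed are 25.6% of the 227, beside 27.6% of all genes tested, so the share that changed is near the background. The split by direction was uneven: 19.4% rose and 6.17% fell, beside 13.3% and 14.3% of all genes. The median log2 fold change was 0.27 over the antisense RNAs and 0.02 over all genes. Changes of at least 2-fold made up 27 of the rises and 8 of the falls, where 17% of all genes passed and changed that much in either direction. All 3 knockout libraries lay above all 3 parental libraries in 92 antisense RNAs (40.5%, beside 27% of all genes) and below them in 26 (11.5%, beside 22.8%). Among the 196 that reached 1 CPM in both groups, 33 rose and 9 fell. Of the 22 that reached it in the knockout alone, 11 rose, and of the 9 that reached it in the parental line alone, 5 fell. Without parental replicate 3, 97 rose and 36 fell, 58.6% of the 227 beside 61.6% of all genes, with 30.8% of all genes rising and 30.8% falling. All 58 calls kept their direction and passed there, but 29 of the 58 lost the call when at least 1 of the other libraries was left out.

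**Figure D1:**
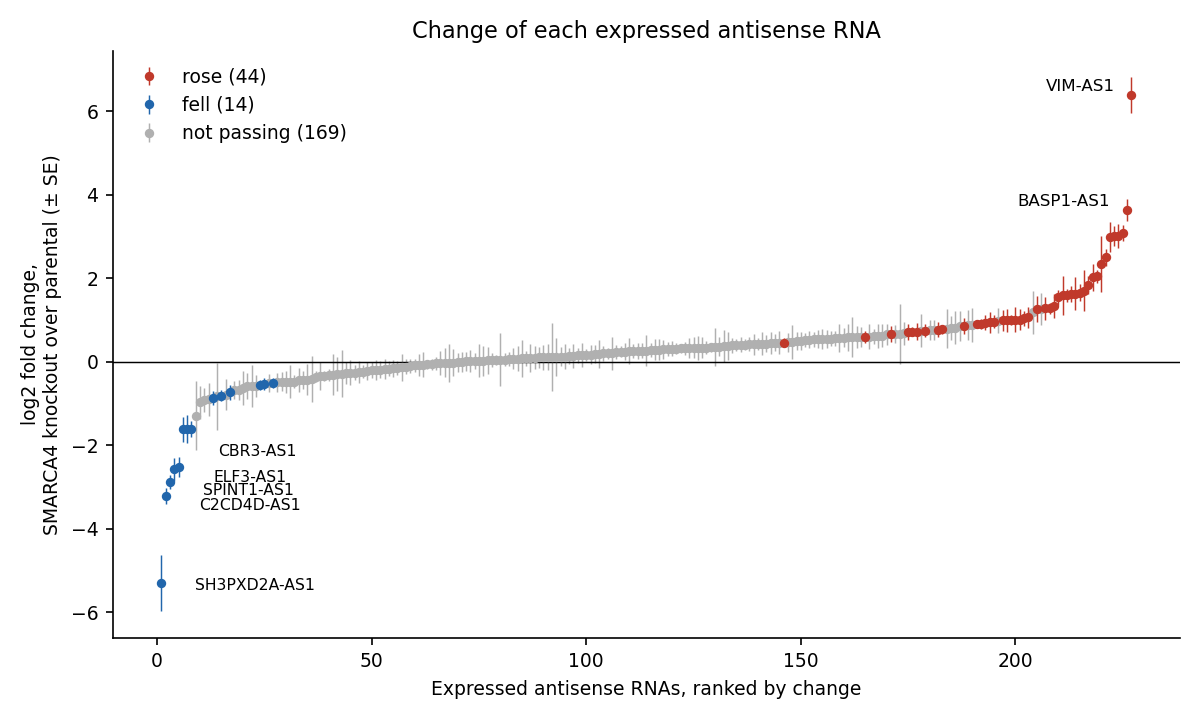
Log2 fold change (SMARCA4 knockout over parental, vertical axis, bars ± SE) of the 227 expressed antisense RNAs in rank order (horizontal axis), coloured by whether each rose, fell or did not pass. VIM-AS1 stands highest at 6.37 and SH3PXD2A-AS1 lowest at -5.30, and the 44 rises outnumber the 14 falls.

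The partner genes were examined next. A partner of the name before the hyphen had a row for 223 of the 227, all of them protein-coding. Of these, 205 passed the filter on low counts: 32 rose, 36 fell and 137 did not pass, so that 33.2% changed, beside 27.6% of all genes. Where the antisense RNA rose, the partner rose in 17 cases, fell in 5, did not pass in 15 and was too low to test in 7. Where the antisense RNA fell, the partner fell in 9 cases, rose in 1, did not pass in 2, was too low to test in 1 and had no row in 1. In 36 pairs the partner passed while the antisense RNA did not: 14 of those partners rose and 22 fell. Across the 205 pairs the log2 fold changes of antisense RNA and partner had a Pearson coefficient of 0.464 and a Spearman coefficient of 0.320, and 115 pairs (56.1%) had the same sign. These coefficients describe pairs that share their libraries, and whose reads may not be told apart where their exons overlap. The pairs include antisense RNAs that reached 1 CPM in 1 group alone, such as VIM-AS1 and SH3PXD2A-AS1. Neither the coefficients nor the counts were computed without those RNAs. Reads that fit more than 1 gene were left unassigned, 3.78% to 4.38% of all counted reads in a library.

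The pairs were then grouped by layout. In 139 of the 227, antisense RNA and partner lie head-to-head, with starts within 1000 bases of each other or overlapping 5′ ends. Distances between starts are given here for the nearest pair of annotated transcript starts. Tail-to-tail pairs, which overlap at their ends, number 46, and in 29 one gene lies within the other. Of the rest, 2 do not overlap and 11 could not be placed. Over 135 tested head-to-head pairs the Pearson coefficient of the log2 fold changes was 0.621 and the Spearman coefficient 0.417, with 81 of the same sign. Over 38 tail-to-tail pairs the coefficients were -0.135 and -0.124, with 14 of the same sign. Over 21 nested pairs they were 0.520 and 0.405, with 12 of the same sign. The coefficients were 0.624 and 0.412 over the 49 pairs that share no exon base with each other, and 0.399 and 0.264 over the 147 that do. Of the 17 pairs that rose together, 13 were head-to-head, and of the 9 that fell together, 7 were, beside 135 of all 205 tested pairs. No test was made of the difference between layouts, and these values too include antisense RNAs that reached 1 CPM in 1 group alone.

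**Figure D2:**
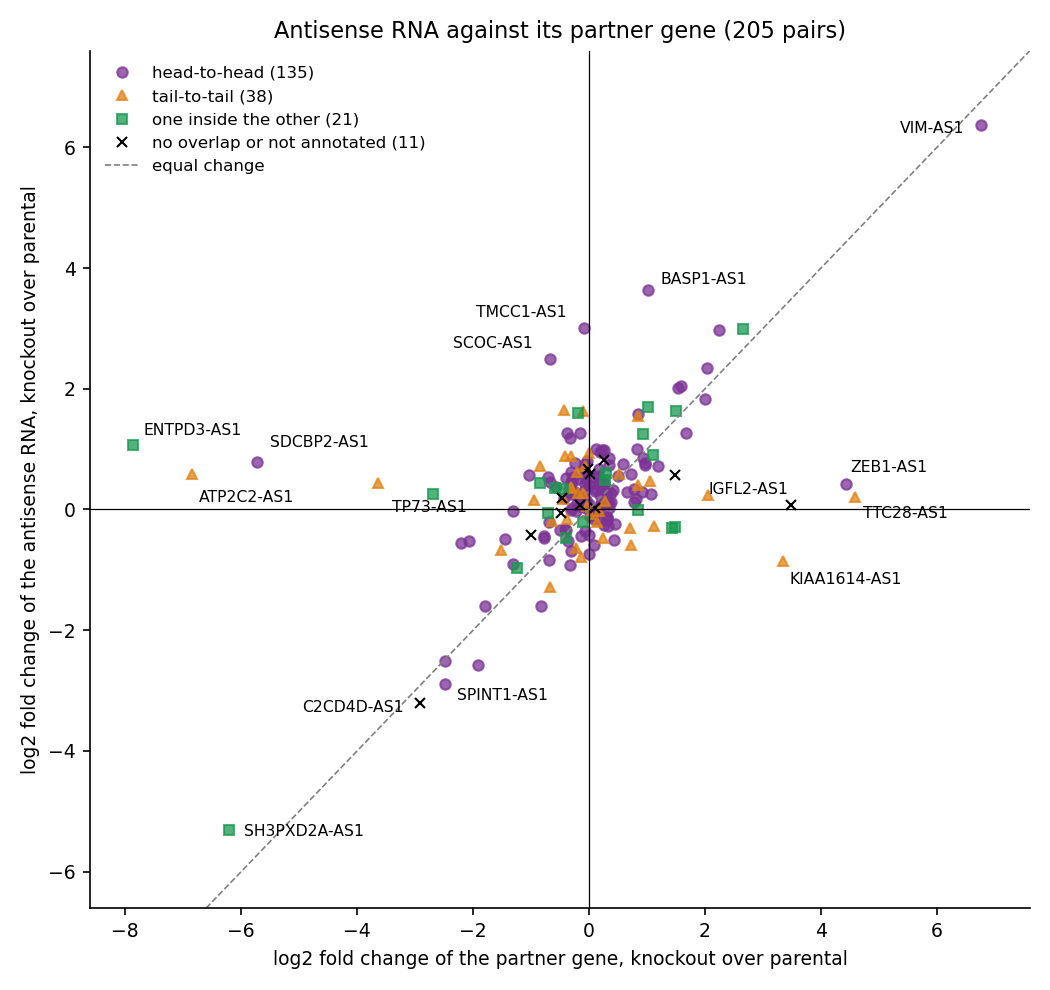
Log2 fold change of the antisense RNA (vertical axis) against that of its partner gene (horizontal axis), SMARCA4 knockout over parental, for 205 pairs marked by layout; the dashed line marks equal change. VIM-AS1 and SPINT1-AS1 lie near the line, while ENTPD3-AS1, ATP2C2-AS1, SDCBP2-AS1, ZEB1-AS1 and TTC28-AS1 lie near the horizontal axis, far from the line; SDCBP2-AS1 and ZEB1-AS1 are head-to-head, as are VIM-AS1 and SPINT1-AS1.

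Whether antisense RNA and partner changed by different amounts was tested directly, with limma on their log2 ratio in each library. Of the 205 pairs, the antisense RNA changed upwards relative to its partner in 25, downwards in 10 and not past the threshold in 170. The 35 that differed are 17.1% of the pairs. Over all 483 tested pairs 17.4% differed, 12% above and 5.38% below. Those 483 include the 205 pairs themselves, and also -AS1 rows below the rule and rows with other suffixes such as -AS, -AS2, -IT1 and -DT. By layout, 18 of 135 head-to-head pairs differed (13.3%), 11 of 38 tail-to-tail pairs (28.9%) and 4 of 21 nested pairs (19%). Of the 35, 19 held with each library left out in turn. Without parental replicate 3, the antisense RNA lay above in 72 and below in 36 of 206 pairs, where 45.1% of all pairs differed in either direction.

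VIM-AS1 had the largest rise, and it reached 1 CPM in the knockout libraries alone. It runs head-to-head from VIM, the gene for vimentin, an intermediate filament protein of mesenchymal cells, with starts 19 bases apart at chr10:17214239-17229985, minus strand. VIM-AS1 had 6.36, 5.75 and 5.59 CPM in the knockout libraries, against 0.105, 0.0837 and 0.0176 CPM in the parental libraries. All 3 knockout libraries stood far above the parental ones, which were at or near the limit of detection. The log2 fold change was 6.37 ± 0.43 (SE, adjusted p = 0.000224). VIM itself had 34.8, 33.7 and 33.4 CPM in knockout cells and 0.455, 0.418 and 0.0527 CPM in the parental line, a log2 fold change of 6.77 ± 0.61 (adjusted p = 0.000635). The difference between the changes, from the log2 ratios with a prior count of 2, did not pass (-1.02 ± 0.34, limma adjusted p = 0.0932). With parental levels at or near the limit of detection it depends on the prior count. It therefore need not equal the gap between the 2 log2 fold changes above. The rise of VIM and VIM-AS1 stands beside the rises of LUM, COL3A1 and CDH5 and the fall of COL1A1 given above. The other fibroblast and endothelial markers did not pass or were too low to test. The part of these markers in the rise of VIM and VIM-AS1 was not tested. Of the exon bases of VIM-AS1, 32.2% lie in exons of another gene.

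The sequences around the starts of 3 antisense RNAs that moved with their partner are shown here, so that they can be set beside those of a pair that did not. Each is the RefSeq window on GRCh38.p14 from 250 bases before to 50 bases after a start of the antisense RNA, read 5′ to 3′ on the antisense strand. Where RefSeq gives several starts, the window nearest to a partner start was taken. Capitals mark TGANTCA, the motif bound by AP-1 factors, and CACCTG, the E-box bound by ZEB and SNAI repressors, on either strand. The windows are chr10:17226849-17227148 for VIM-AS1, chr15:40844475-40844774 for SPINT1-AS1 and chr1:202010304-202010603 for ELF3-AS1, all on the minus strand.
VIM-AS1: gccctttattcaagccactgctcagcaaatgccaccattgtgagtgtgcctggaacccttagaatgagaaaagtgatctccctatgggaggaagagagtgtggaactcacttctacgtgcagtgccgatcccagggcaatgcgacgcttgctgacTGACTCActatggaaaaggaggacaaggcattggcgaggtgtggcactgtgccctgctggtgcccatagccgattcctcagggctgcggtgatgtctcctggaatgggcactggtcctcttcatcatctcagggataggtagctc
SPINT1-AS1: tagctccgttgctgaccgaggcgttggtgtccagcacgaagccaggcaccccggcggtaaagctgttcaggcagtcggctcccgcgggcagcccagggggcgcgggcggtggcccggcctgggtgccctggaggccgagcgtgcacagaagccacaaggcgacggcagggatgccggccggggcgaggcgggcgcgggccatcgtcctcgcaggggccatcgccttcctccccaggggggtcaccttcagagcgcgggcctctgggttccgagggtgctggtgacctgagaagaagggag
ELF3-AS1: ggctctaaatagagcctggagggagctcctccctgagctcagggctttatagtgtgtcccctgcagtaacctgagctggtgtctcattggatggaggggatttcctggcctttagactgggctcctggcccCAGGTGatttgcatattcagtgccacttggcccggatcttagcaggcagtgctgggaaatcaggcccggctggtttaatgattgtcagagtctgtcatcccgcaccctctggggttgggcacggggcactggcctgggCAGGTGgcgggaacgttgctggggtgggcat
The RefSeq start used for VIM-AS1 lies 1343 bases from the nearest RefSeq start of VIM, unlike the GENCODE start given above, and the window holds 1 TGANTCA at bases 156 to 162. ELF3-AS1 holds 2 E-boxes, at bases 132 to 137 and 270 to 275, and SPINT1-AS1 holds neither motif. No match overlaps another. TGANTCA occurs in 7.73% of the 34796 RefSeq windows of this length and in 9 of the 164 antisense RNAs with a window (5.49%). CACCTG occurs in 20.6% of all windows and in 33 of the 164 (20.1%). The windows of the antisense RNAs held a median of 25 CpG dinucleotides, beside 14 over all windows, and their median GC content was 64.3%, beside 58.7%. Those windows were chosen nearest to a partner start where there was one, and the windows over all genes were not, so the medians are not fully alike.

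Other head-to-head pairs rose together. RASSF8-AS1 starts at the same base as RASSF8, which encodes a Ras-association domain protein, and had 5.80, 5.19 and 6.57 CPM in the knockout libraries, against 0.858, 0.971 and 0.387 CPM in the parental libraries. Its log2 fold change was 2.98 ± 0.36 (adjusted p = 0.0019), beside 2.24 ± 0.17 for RASSF8. ID2-AS1 starts 8 bases from ID2, an inhibitor of helix-loop-helix transcription factors, and had 5.80, 5.57 and 6.44 CPM against 1.23, 0.954 and 2.21 CPM in the parental line. The groups did not overlap for either RNA. The log2 fold change of ID2-AS1 was 2.02 ± 0.33 (adjusted p = 0.00639) and that of ID2 was 1.54 ± 0.34 (adjusted p = 0.0197). The call of ID2 was lost when any knockout library or parental replicate 1 was left out (adjusted p = 0.0606 to 0.0734). NRSN2-AS1, which shares no exon base with any gene, had 7.76, 7.93 and 8.19 CPM in knockout cells and 1.68, 1.96 and 2.13 CPM in the parental line, a log2 fold change of 2.05 ± 0.16 (adjusted p = 0.000313). NRSN2, for the vesicle membrane protein neurensin-2, changed by 1.59 ± 0.27 (adjusted p = 0.00752). The rise of SERTAD4-AS1, a log2 fold change of 2.34 ± 0.68 (adjusted p = 0.047), was lost when any library but parental replicate 3 was left out (adjusted p = 0.0677 to 0.129). CYP1B1-AS1 rose by 1.83 ± 0.22 on the log2 scale (adjusted p = 0.00191). CYP1B1, a cytochrome P450 gene of oestrogen and xenobiotic metabolism, rose as well (adjusted p = 0.0235), a call lost without any 1 knockout library (adjusted p = 0.0723 to 0.0744).

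In 2 further pairs both members rose, but by different layouts or amounts. DNAH17-AS1 lies within DNAH17, an axonemal dynein heavy chain gene, and had 31.5, 32.3 and 34.5 CPM in the knockout libraries, against 3.24, 3.48 and 5.59 CPM in the parental libraries. The log2 fold changes were 3.0 ± 0.24 for the antisense RNA (adjusted p = 0.000411) and 2.66 ± 0.16 for DNAH17, with 26.8% of the antisense exon bases shared with other genes. BASP1-AS1 starts 224 bases from BASP1, a membrane-attached protein that is abundant in growing neurites. It had 3.64, 3.81 and 3.61 CPM in knockout cells and 0.403, 0.234 and 0.246 CPM in the parental line, a log2 fold change of 3.64 ± 0.26 (adjusted p = 0.000259). BASP1 changed less, by 1.02 ± 0.13, and the difference of 2.51 ± 0.24 passed (limma adjusted p = 0.000794).

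**Figure D3:**
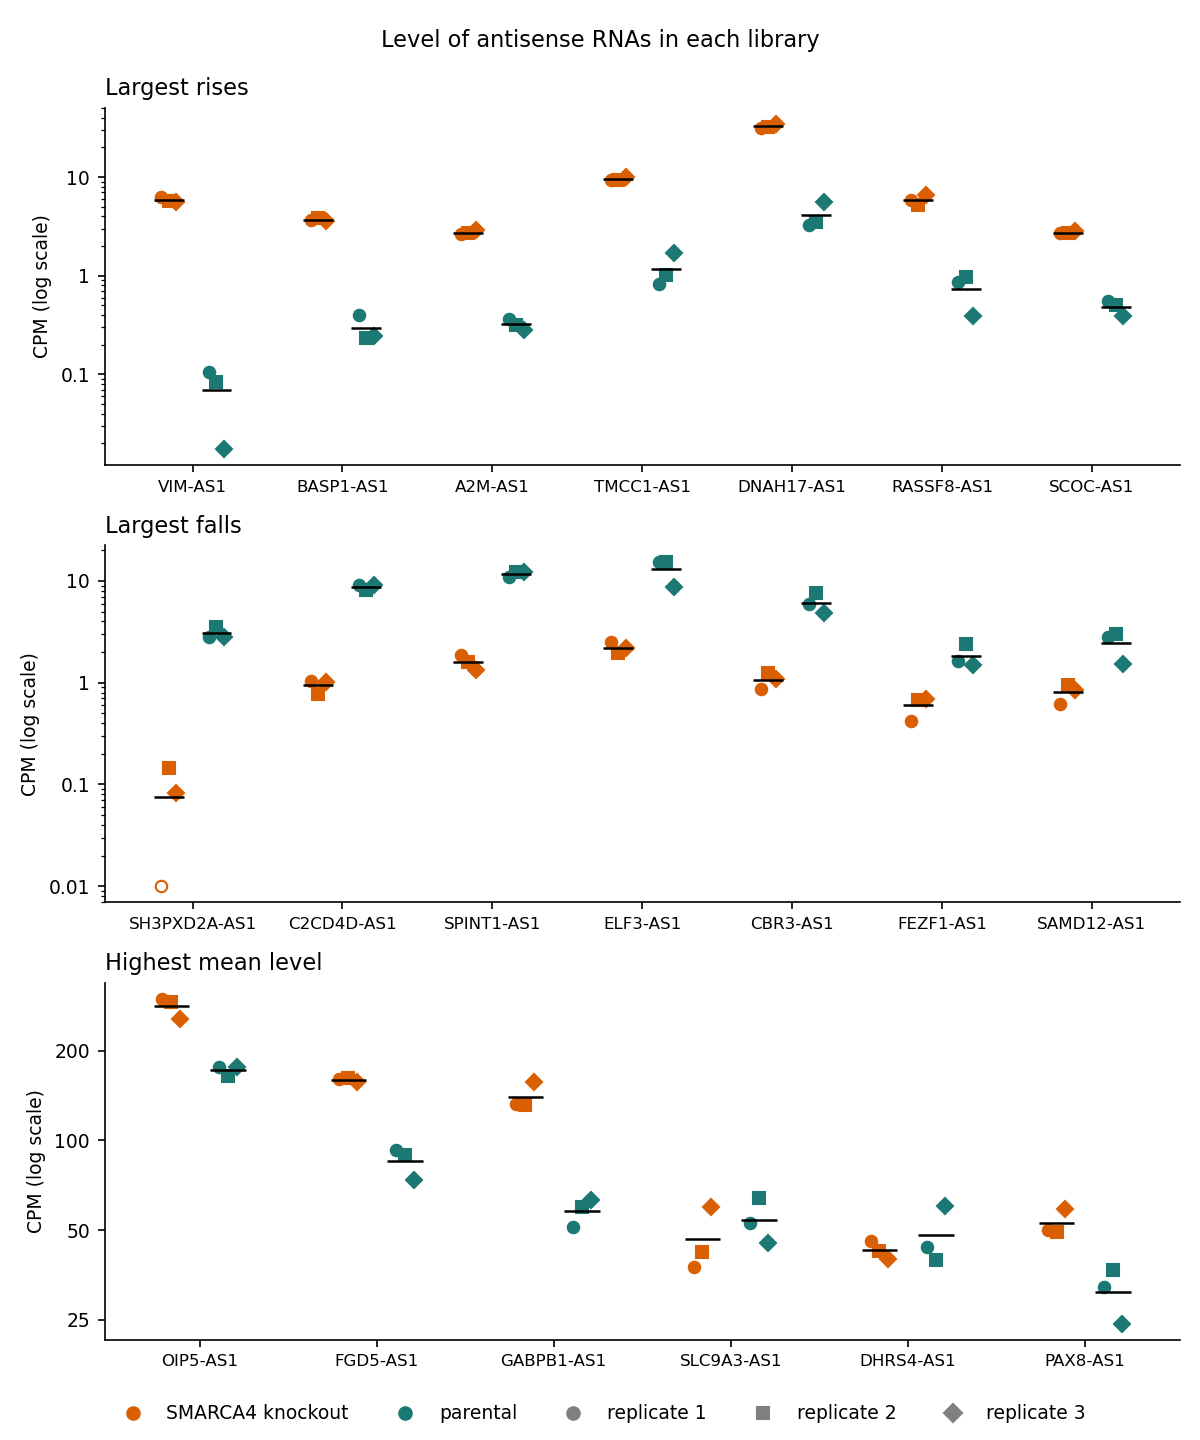
Level (CPM after TMM scaling, log scale) in each of the 3 SMARCA4 knockout and 3 parental libraries for the 7 largest rises, the 7 largest falls and the 6 antisense RNAs with the highest mean; bars mark group means and the open circle stands for 0 CPM, drawn at 0.01. Groups are separate for all of the largest rises and falls, and overlap for SLC9A3-AS1 and DHRS4-AS1.

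The largest falls were mostly shared with the partner as well. SH3PXD2A-AS1 lies within SH3PXD2A, which encodes TKS5, a scaffold of invasive membrane protrusions, and shares no exon base with any gene. This RNA reached 1 CPM in the parental libraries alone. It had 0, 0.145 and 0.0828 CPM in the knockout libraries, against 2.84, 3.56 and 2.81 CPM in the parental libraries. The log2 fold change was -5.30 ± 0.67 (adjusted p = 0.00235), beside -6.21 ± 0.66 for SH3PXD2A. SPINT1-AS1 starts 107 bases from SPINT1, the gene for HAI-1, a Kunitz-type inhibitor of epithelial serine proteases. It had 1.86, 1.60 and 1.34 CPM in knockout cells and 11.1, 12.2 and 12.2 CPM in the parental line, with no overlap. The log2 fold change of SPINT1-AS1 was -2.88 ± 0.17 (adjusted p = 0.000143), and that of SPINT1 was -2.49 ± 0.23 (adjusted p = 0.00072). ELF3-AS1 pairs with ELF3, an epithelial ETS transcription factor, and had 2.51, 1.94 and 2.20 CPM in the knockout against 15.5, 15.3 and 8.67 CPM in the parental line. The log2 fold changes were -2.57 ± 0.27 (adjusted p = 0.00122) for ELF3-AS1 and -1.92 ± 0.18 for ELF3. These falls stand beside the lower summed level of epithelial markers given above, whose part in them was not tested.

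CBR3-AS1, with 1 of its annotated transcript starts 39 bases from that of CBR3, a carbonyl reductase gene, had 0.866, 1.23 and 1.09 CPM in the knockout libraries, against 5.88, 7.56 and 4.85 CPM in the parental libraries. A log2 fold change of -2.52 ± 0.25 (adjusted p = 0.000856) stood beside -2.49 ± 0.43 for CBR3, and the difference between them did not pass (adjusted p = 0.848). C2CD4D-AS1 had 1.04, 0.78 and 1.03 CPM in knockout cells and 9.19, 8.12 and 9.14 CPM in the parental line, a log2 fold change of -3.21 ± 0.18 (adjusted p = 0.000119). C2CD4D changed by -2.91 ± 0.36, and the positions of this pair could not be placed. MCF2L-AS1, head-to-head with MCF2L, averaged 1.46 ± 0.09 CPM in knockout cells and 4.46 ± 0.70 CPM in the parental line (SD, n = 3 each), with log2 fold changes of -1.61 ± 0.18 for the antisense RNA and -1.79 ± 0.25 for MCF2L. FEZF1-AS1 fell by 1.62 ± 0.30 on the log2 scale (adjusted p = 0.0102) while FEZF1, a forebrain zinc finger gene, had 1 read in the knockout and 10 reads in the parental libraries in all. SAMD12-AS1 fell by 1.61 ± 0.33 (adjusted p = 0.0146), a call lost without knockout replicate 1 or 3 (adjusted p = 0.0635 to 0.067). FAM198B-AS1 had 3.30, 3.01 and 3.06 CPM in knockout cells and 5.76, 5.59 and 5.10 CPM in the parental line, a log2 fold change of -0.81 ± 0.14 (adjusted p = 0.00797). That call was lost without knockout replicate 2 (adjusted p = 0.0594), and its partner has no row under that symbol.

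Large changes of a partner were not always carried by its antisense RNA. Of 9 partners that rose at least 4-fold, 4 had an antisense RNA that rose, 1 had one that fell and 4 had one that did not pass. The median log2 fold change was 0.41 for these antisense RNAs and 3.35 for their partners. Of 11 partners that fell at least 4-fold, 6 had an antisense RNA that fell, 1 had one that rose and 4 had one that did not pass. Their medians were -0.53 for the antisense RNAs and -2.91 for the partners.

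ZEB1-AS1 is head-to-head with ZEB1. ZEB1 encodes a zinc finger repressor of epithelial genes and had 41.4, 44.3 and 40.0 CPM in the knockout libraries, against 2.38, 2.51 and 0.949 CPM in the parental libraries, a log2 fold change of 4.43 ± 0.39 (adjusted p = 0.000557). ZEB1-AS1, starting 63 bases away, had 6.38, 7.13 and 6.42 CPM in knockout cells and 5.25, 5.57 and 4.13 CPM in the parental line. Its groups were close but did not overlap, and its log2 fold change of 0.41 ± 0.17 did not pass (adjusted p = 0.117). The change of the antisense RNA was lower than that of ZEB1 by a log2 difference of -4.10 ± 0.29 (limma adjusted p = 0.000203). Per kilobase of exon, ZEB1-AS1 had 1.73 CPM and ZEB1 had 4.84 CPM in the knockout, whereas in the parental line ZEB1-AS1 had 1.30 CPM and ZEB1 had 0.225 CPM. Its window at chr10:31320398-31320697 on the minus strand is given below for comparison with the 3 windows above, beside that of SCOC-AS1 at chr4:140373343-140373642 on the same strand, a pair that moved in opposite directions.
ZEB1-AS1: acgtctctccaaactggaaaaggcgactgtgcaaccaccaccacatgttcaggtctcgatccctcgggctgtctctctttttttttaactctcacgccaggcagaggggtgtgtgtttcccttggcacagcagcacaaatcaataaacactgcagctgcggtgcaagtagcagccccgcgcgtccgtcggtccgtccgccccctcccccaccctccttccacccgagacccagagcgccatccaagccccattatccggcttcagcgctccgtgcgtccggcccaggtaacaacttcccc
SCOC-AS1: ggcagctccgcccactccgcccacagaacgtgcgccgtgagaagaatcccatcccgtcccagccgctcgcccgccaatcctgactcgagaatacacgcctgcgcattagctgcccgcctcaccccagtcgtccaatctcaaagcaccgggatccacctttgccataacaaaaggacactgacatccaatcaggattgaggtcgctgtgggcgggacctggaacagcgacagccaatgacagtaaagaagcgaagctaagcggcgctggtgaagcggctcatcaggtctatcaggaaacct
Neither window holds TGANTCA or CACCTG. They hold 20 and 22 CpG dinucleotides, beside 7 for VIM-AS1, 29 for SPINT1-AS1 and 6 for ELF3-AS1.

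Of the 15 partners that rose without their antisense RNA, 5 were head-to-head, 6 tail-to-tail and 2 nested, 1 did not overlap and 1 could not be placed. TTC28, which encodes a tetratricopeptide protein, had 29.4, 29.6 and 24.5 CPM in the knockout libraries, against 1.54, 1.42 and 0.51 CPM in the parental libraries. TTC28-AS1 had 5.95, 6.31 and 6.94 CPM in knockout cells and 5.30, 5.47 and 5.96 CPM in the parental line, groups that overlap slightly. TTC28-AS1 had a log2 fold change of 0.20 ± 0.14 beside 4.58 ± 0.43 for TTC28, a log2 difference of -4.49 ± 0.46 (limma adjusted p = 0.000794). IGFL2-AS1, whose start lies 42286 bases from that of IGFL2, an insulin growth factor-like gene, had 36.5, 36.8 and 49.9 CPM in knockout cells and 45.6, 55.1 and 15.8 CPM in the parental line. IGFL2 changed by 3.48 ± 0.68 on the log2 scale, and the difference was -3.64 ± 0.35 (adjusted p = 0.000794). KIAA1614-AS1 fell by 0.86 ± 0.17 (adjusted p = 0.0112) while KIAA1614 rose by 3.35 ± 0.32 on the same scale, but 84.7% of its exon bases are shared with other genes and the fall was lost without any 1 knockout library (adjusted p = 0.0555 to 0.0672). For VASH1-AS1, with 86.3% of its exon bases shared, the difference from the angiogenesis inhibitor VASH1 was -1.85 ± 0.34 (adjusted p = 0.011), lost without knockout replicate 1 (adjusted p = 0.0511). For PTPRG-AS1 the difference from the receptor phosphatase PTPRG was -1.33 ± 0.28 (adjusted p = 0.0201), lost without knockout replicate 1 or 2 (adjusted p = 0.0811 to 0.094).

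**Figure D4:**
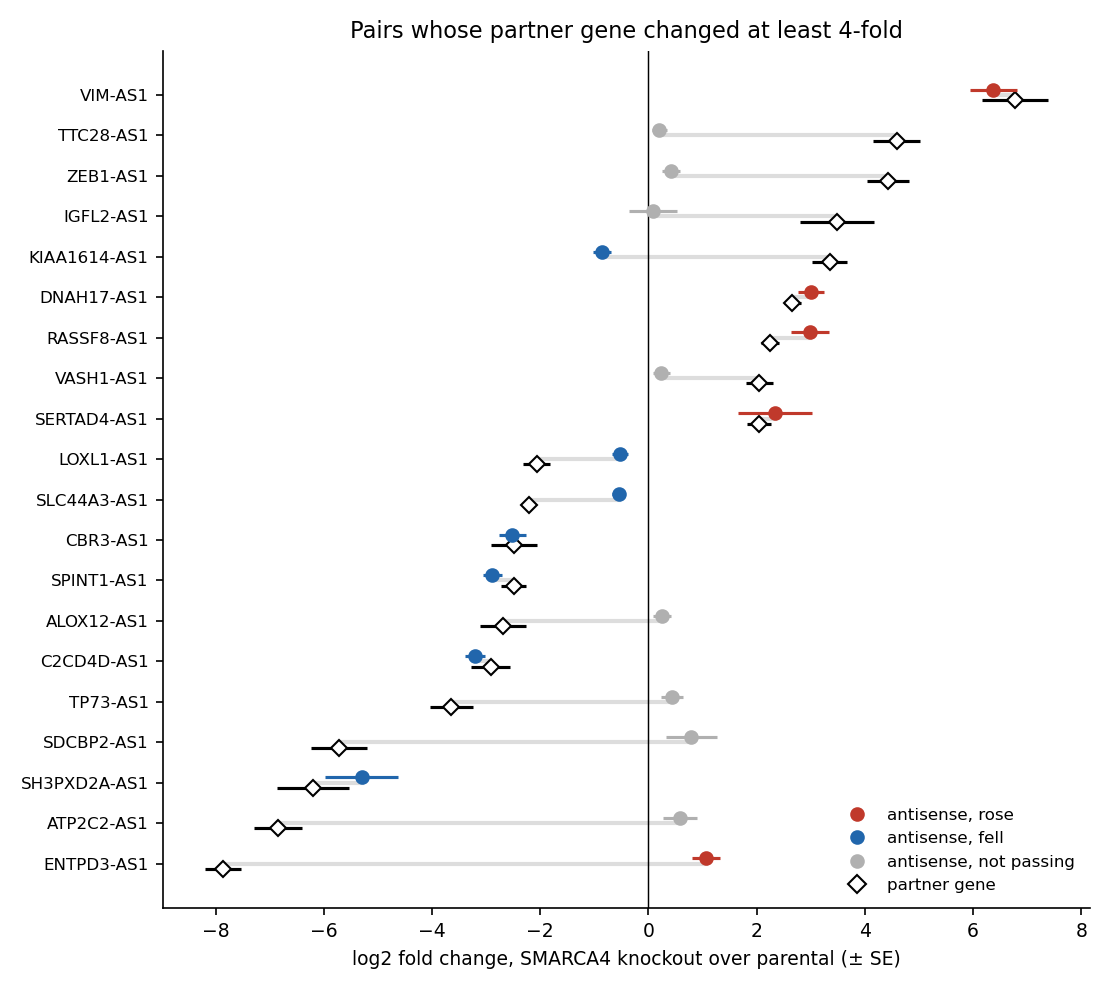
Log2 fold change (SMARCA4 knockout over parental, horizontal axis, bars ± SE) of the antisense RNA (filled circle, coloured by whether it rose, fell or did not pass) and its partner gene (open diamond) for the 20 pairs whose partner passed with a change of at least 4-fold. VIM, DNAH17, RASSF8, SERTAD4, CBR3, SPINT1, C2CD4D and SH3PXD2A lie beside their antisense RNA, and the rest are 1 log2 unit or more apart.

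Among the partners that fell, ENTPD3 had the largest difference from its antisense RNA. ENTPD3, an ecto-nucleotidase gene, had 0.23, 0.127 and 0.0828 CPM in the knockout libraries, against 35.6, 34.3 and 33.1 CPM in the parental libraries. ENTPD3-AS1, which is nested with it and shares 4.32% of its exon bases with other genes, had 2.23, 2.07 and 1.97 CPM in knockout cells and 0.858, 0.787 and 1.35 CPM in the parental line. The groups did not overlap, and the log2 fold change was 1.06 ± 0.25 (adjusted p = 0.025), beside -7.86 ± 0.33 for ENTPD3. The difference was 8.73 ± 0.34 (limma adjusted p = 6e-06). The rise of ENTPD3-AS1 itself was lost when any library but parental replicate 3 was left out (adjusted p = 0.0727 to 0.0967), while the difference held in each case, with adjusted p at most 0.000122.

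ATP2C2, a secretory-pathway calcium ATPase gene, fell to 2.16 ± 0.25 CPM in the knockout, against 249 ± 105 CPM in the parental line (SD, n = 3 each), while ATP2C2-AS1 averaged 2.21 ± 0.46 CPM in knockout and 1.48 ± 0.55 CPM in parental libraries. The groups of ATP2C2-AS1 overlapped, 64.3% of its exon bases are shared, and the log2 difference between the changes was 7.33 ± 0.24 (adjusted p = 5.4e-06). SDCBP2, which encodes syntenin-2, a PDZ scaffold, had 1.91, 2.1 and 2.27 CPM in knockout cells and 136, 150 and 46.4 CPM in the parental line. SDCBP2-AS1, 286 bases away, had 6.10, 6.33 and 5.91 CPM in knockout cells and 2.07, 2.11 and 6.42 CPM in the parental line, so that only parental replicate 3 reached the knockout level. SDCBP2-AS1 had a log2 fold change of 0.79 ± 0.47 (adjusted p = 0.265), and 1.5 without that library (adjusted p = 2.46e-07). The difference from SDCBP2 was 6.53 ± 0.83 (adjusted p = 0.00216). TP73, of the p53 family, fell by 3.64 ± 0.40 on the log2 scale while TP73-AS1 had 16.9, 18.2 and 22.5 CPM in knockout cells and 15.5, 16.6 and 10.5 CPM in the parental line, a change of 0.44 ± 0.21 that did not pass (adjusted p = 0.183). The difference was 3.75 ± 0.41 (adjusted p = 0.00104). SLC44A3-AS1, head-to-head with the choline transporter-like gene SLC44A3 and free of shared exon bases, fell by 0.55 ± 0.13 beside a fall of 2.21 ± 0.11 on the same scale for SLC44A3, and the difference of 1.65 ± 0.17 passed (adjusted p = 0.000794). The fall of SLC44A3-AS1 was lost when any library but parental replicate 3 was left out (adjusted p = 0.0555 to 0.112).

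Some antisense RNAs rose while the partner did not. TMCC1-AS1 starts 205 bases from TMCC1, a membrane protein gene of the endoplasmic reticulum, and shares no exon base with any gene. It had 9.26, 9.34 and 9.93 CPM in the knockout libraries, against 0.823, 1.02 and 1.69 CPM in the parental libraries, with wide separation. The log2 fold change was 3.01 ± 0.29 (adjusted p = 0.000821). TMCC1 had 37.0, 38.9 and 35.7 CPM in knockout cells and 47.7, 47.4 and 23.9 CPM in the parental line, a log2 fold change of -0.09 ± 0.27, and the difference of 3.06 ± 0.50 passed (limma adjusted p = 0.0072). SCOC-AS1 starts 93 bases from SCOC, a short coiled-coil protein gene of the Golgi, and also shares no exon base. It had 2.69, 2.68 and 2.85 CPM in knockout cells and 0.56, 0.502 and 0.387 CPM in the parental line, a log2 fold change of 2.50 ± 0.21 (adjusted p = 0.000428). SCOC changed the other way, by -0.68 ± 0.13 (adjusted p = 0.0109), a call lost without knockout replicate 1 or 3 (adjusted p = 0.062 to 0.0627), and the difference was 3.11 ± 0.25 (limma adjusted p = 0.000314).

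SP2-AS1, which shares no exon base and overlaps the 3′ end of the zinc finger factor gene SP2, had 1.96, 1.49 and 1.94 CPM in the knockout libraries, against 0.543, 0.586 and 0.58 CPM in the parental libraries. SP2-AS1 changed by 1.65 ± 0.20 (adjusted p = 0.00191), while SP2 changed by -0.44 ± 0.10 (adjusted p = 0.0207), lost when any library but parental replicate 3 was left out (adjusted p = 0.0689 to 0.114). The difference was 2.02 ± 0.21 (limma adjusted p = 0.000794). A2M-AS1, tail-to-tail with the protease inhibitor gene A2M, had 2.67, 2.68 and 2.88 CPM in knockout cells and 0.368, 0.318 and 0.281 CPM in the parental line. It rose by 3.08 ± 0.19 on the log2 scale (adjusted p = 0.000169), while A2M had 25 reads in the knockout and 12 in the parental libraries in all and was not tested. DLGAP1-AS1 likewise rose by 1.00 ± 0.11 (adjusted p = 0.00145) with 4 reads in knockout and 3 in parental libraries on its host gene DLGAP1, a postsynaptic scaffold gene. SP2-AS1 and DLGAP1-AS1 are described here because they share no exon base, a choice made after their values were seen, as were CYP1B1-AS1 and SLC44A3-AS1.

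Of the 6 most abundant antisense RNAs, 4 rose and 2 did not pass. OIP5-AS1, a conserved cytoplasmic RNA known for binding the microRNA miR-7, had 298, 292 and 256 CPM in the knockout libraries, against 176, 164 and 176 CPM in the parental libraries. Its groups did not overlap, and its log2 fold change was 0.72 ± 0.11 (adjusted p = 0.00432). OIP5, a centromere protein gene, averaged 5.22 ± 0.45 CPM in knockout cells and 9.39 ± 11.7 CPM in the parental line, where parental replicate 3 had 22.9 CPM and the other 2 had 2.54 and 2.71 CPM. Its log2 fold change of -0.85 did not pass (adjusted p = 0.521), and was 0.94 without that library (adjusted p = 4.31e-05).

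FGD5-AS1 had 160, 162 and 157 CPM in the knockout libraries, against 92.8, 89.1 and 73.8 CPM in the parental libraries, and rose by 0.91 ± 0.12 on the log2 scale (adjusted p = 0.00247). FGD5, a gene known from endothelium, had 6 reads in the knockout and 4 in the parental libraries in all. GABPB1-AS1 had 132, 131 and 157 CPM in knockout cells and 51.1, 59.8 and 62.9 CPM in the parental line, a log2 fold change of 1.27 ± 0.13 (adjusted p = 0.00103). Its head-to-head partner GABPB1, a subunit of the transcription factor GABP, changed by -0.38 ± 0.10 (adjusted p = 0.0295, lost without any knockout library or parental replicate 1, adjusted p = 0.0924 to 0.137). The difference of 1.65 ± 0.16 passed (limma adjusted p = 0.000794). PAX8-AS1 rose by 0.77 ± 0.18 beside 0.97 ± 0.24 for the thyroid and kidney factor PAX8 (adjusted p = 0.0216 and 0.0265). The rise of PAX8-AS1 was lost without any knockout library or parental replicate 1 (adjusted p = 0.0614 to 0.0857), and that of PAX8 without any knockout library or parental replicate 2 (adjusted p = 0.0585 to 0.0953). SLC9A3-AS1 averaged 46.6 ± 11.8 CPM in knockout cells and 54.0 ± 9.5 CPM in the parental line, and DHRS4-AS1 averaged 42.8 ± 3.0 CPM in knockout and 48.0 ± 10.8 CPM in parental libraries (SD, n = 3 each), with overlapping groups in both.

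Of 48 antisense RNAs listed as studied in cancer, 24 were expressed at this level: 6 rose, 3 fell and 15 did not pass. The 9 that passed are 37.5% of the list, beside 27.6% of all genes tested (13.3% rising, 14.3% falling). The list was chosen with earlier results of these data known, so this share only describes it. VIM-AS1, FGD5-AS1, OIP5-AS1, PCBP1-AS1, NR2F1-AS1 and FOXD2-AS1 rose, and FEZF1-AS1, LOXL1-AS1 and SBF2-AS1 fell. The median log2 fold change of the 24 was 0.27, as over all 227. PCBP1-AS1 had 17.0, 17.0 and 17.5 CPM in the knockout libraries, against 10.1, 10.4 and 9.70 CPM in the parental libraries, a log2 fold change of 0.77 ± 0.11 (adjusted p = 0.00305). Its partner PCBP1, an RNA-binding protein gene, changed by -0.25 ± 0.14 and did not pass. LOXL1-AS1 had 9.28, 10.1 and 10.5 CPM in knockout cells and 15.3, 15.9 and 12.0 CPM in the parental line, a log2 fold change of -0.53 ± 0.15 (adjusted p = 0.0429) beside -2.07 ± 0.25 for LOXL1, an elastin cross-linking oxidase gene. The calls of LOXL1-AS1 and FOXD2-AS1 were lost when any library but parental replicate 3 was left out (adjusted p up to 0.169 and 0.114). That of SBF2-AS1 was lost without any knockout library or parental replicate 1 (up to 0.12), and that of NR2F1-AS1 without knockout replicate 1 or 2 (up to 0.0723). TMPO-AS1, MNX1-AS1, HIF1A-AS1, PXN-AS1, MCM3AP-AS1 and GAS6-AS1 did not pass, and in all 6 of them parental replicate 3 was the highest of the parental libraries. TMPO-AS1 had 3.68, 3.07 and 3.51 CPM in knockout cells and 2.29, 1.79 and 14.2 CPM in the parental line. Its log2 fold change was -0.83 with all libraries and 0.70 without parental replicate 3 (adjusted p = 0.488 and 0.00176). TTN-AS1, PSMA3-AS1, KTN1-AS1, SLC25A25-AS1, THUMPD3-AS1, DLX6-AS1, CD27-AS1, TP73-AS1 and ZEB1-AS1 did not pass either.

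Antisense RNAs next to listed transcription factor genes numbered 19, of which 5 rose, 2 fell and 12 did not pass, so that 36.8% passed, beside 27.6% of all genes tested. Beside PAX8-AS1, FOXD2-AS1 and NR2F1-AS1, the risers were ZFHX2-AS1 and FOXN3-AS1, and those that fell were ELF3-AS1 and FEZF1-AS1. NR2F1-AS1 had 8.46, 8.49 and 7.23 CPM in the knockout libraries, against 4.92, 5.19 and 4.34 CPM in the parental libraries. The log2 fold change of 0.74 ± 0.15 (adjusted p = 0.0126) stood beside 0.96 ± 0.12 for the nuclear receptor gene NR2F1 (adjusted p = 0.00223). ZFHX2-AS1 rose by 1.25 ± 0.31 (adjusted p = 0.0286) and FOXN3-AS1 by 0.67 ± 0.19 (adjusted p = 0.0437). The call of ZFHX2-AS1 did not hold without parental replicate 1, knockout replicate 2 or knockout replicate 3 (adjusted p = 0.0822 to 0.0879), nor that of FOXN3-AS1 without any library but parental replicate 3 (0.109 to 0.144). TBX2-AS1 had 2.03, 2.03 and 2.22 CPM in knockout cells and 0.753, 0.887 and 1.55 CPM in the parental line, and its log2 fold change of 0.98 ± 0.30 missed the threshold (adjusted p = 0.0556). BHLHE40-AS1, SOX21-AS1, RARA-AS1, ZBTB11-AS1, ZNF337-AS1 and ZNF561-AS1 had log2 fold changes between -0.34 and 0.19 and did not pass. Of 5 antisense RNAs next to listed epithelial or mesenchymal identity genes, VIM-AS1 rose, ELF3-AS1 and LOXL1-AS1 fell, and ZEB1-AS1 and GAS6-AS1 did not pass. Thus 60% of these 5 passed, beside the same 27.6%. The lists share members and were chosen with earlier results of these data known, so their shares only describe them.

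Per kilobase of exon, the antisense RNA stood below its partner in both groups in 135 of 214 pairs with known lengths and above it in both groups in 65. The order differed between the groups in 14 pairs. All exon bases of a gene entered these lengths, also those shared with another gene, where reads that fit more than 1 gene were left unassigned. Levels per kilobase may therefore be too low for genes with many shared bases, among them VASH1-AS1 and ATP2C2-AS1. ENTPD3-AS1 had 0.705 CPM per kilobase and ENTPD3 had 0.0405 in the knockout, whereas in the parental line ENTPD3-AS1 had 0.337 and ENTPD3 had 9.51 CPM per kilobase. SDCBP2-AS1 had 1.51 and SDCBP2 had 0.789 CPM per kilobase in the knockout, whereas in the parental line SDCBP2-AS1 had 0.870 and SDCBP2 had 41.7. In the same way ATP2C2-AS1 stood above ATP2C2 in the knockout alone, and TTC28-AS1, VASH1-AS1 and ZEB1-AS1 stood above their partners in the parental line alone. In those 6 pairs the partner had the larger change between the groups.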

How the data were processed

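RNA-seq libraries of 3 knockout and 3 parental samples were used. The deposited files hold raw read counts per gene symbol, made by the authors with TopHat2 2.1.1 and HTSeq 0.11.0 on hg38, per the submitters' processing notes, with the annotation release and strand setting not given in the sources used here. Unassigned reads (5 rows) stayed out of library sizes. Groups came from the genotype label. Counts were tested in edgeR 4.0.16 (R 4.3.3: TMM, filterByExpr, robust glmQLFit and glmQLFTest, two-sided, knockout over parental, Benjamini-Hochberg over 17809 genes, threshold 0.05). All printed CPM are TMM-scaled except those of the membership rule. Pairs were tested with limma 3.58.1 on the log2 ratio per library (prior count 2, Benjamini-Hochberg over 483 pairs with antisense, intronic, overlapping or divergent suffixes). Adjusted p-values and SE are from these fits. Positions, exon bases and layouts came from GENCODE 29 by symbol, and windows from RefSeq on GRCh38.p14. Scripts were tested on simulated counts. The members and lists were chosen with earlier results of these data known. The text names SMARCA4, the 10 largest rises and falls past the threshold without overlap, the 6 highest levels, the RNAs at the edge of the rule, list members, the 6 largest pair differences each way and their partners. Alternatives were other scalings, filters, tests, prior counts, a replicate block and leaving out each library.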

Additional observations from a re-analysis of the deposited data

How the results depend on the processing

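The number of changed antisense RNAs (58, of which 44 rose and 14 fell) stayed within 1.5 times under RLE factors, upper-quartile factors, DESeq2 1.42.0, limma-voom, no filter and a filter of 1 CPM in 3 libraries, with 46 to 74 changed. Leaving out each library gave 30 to 133 changed (22 to 97 rising, 8 to 36 falling), 19 to 108 differing pairs against 35, and 2692 to 11325 changed genes against 4912; the highest value of each came without parental replicate 3 and the lowest without a knockout library. With a replicate block, taken from the replicate numbers (rep) in the titles and not from the sample numbers there, 34 antisense RNAs changed (25 rising, 9 falling), 27 pairs and 3040 genes. Same-numbered libraries did not deviate together (correlations of -0.049, -4.2e-05 and -0.074 over genes). With 3 libraries per group and parental replicate 3 standing apart, these values cannot show whether the numbers pair libraries. Of the antisense RNAs at 2 CPM or more, 33 rose and 9 fell, and of those sharing no exon base, 13 changed, 10 rising and 3 falling, smaller sets by construction. Over the leave-one-out fits the log2 changes of MNX1-AS1 (-0.23 to 0.41), TMPO-AS1 (-1.27 to 0.70), ZNF337-AS1 (-0.31 to 0.65), OIP5 (-1.30 to 0.94) and TMPO (-1.04 to 0.23) and the difference of ZNF337-AS1 minus partner (-0.42 to 0.70) were positive without parental replicate 3 and negative with all libraries; the cause was not tested. The median log2 change of the antisense RNAs was 0.22 with RLE and 0.32 with upper-quartile factors, beside -0.03 and 0.07 over all genes. Prior counts of 0.5 and 5 gave 35 and 37 differing pairs.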

Other observations

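Antisense RNAs outside the rule were also tested. Among -AS1 rows with a mean below 1 CPM, 207 passed the filter on low counts. Of these, 25 rose and 14 fell, 18.8% beside 27.6% of all genes tested. The low counts of these rows limit what the test could detect. HAS2-AS1, beside the hyaluronan synthase gene HAS2, averaged 1.19 CPM in knockout cells and 0.0860 CPM in the parental line, a log2 fold change of 3.76 ± 0.38 (edgeR adjusted p = 0.000969), with HAS2 itself at 5.37. IGFBP7-AS1 changed by 3.66 ± 0.51 (adjusted p = 0.00333) beside 3.78 for IGFBP7, a secreted growth factor-binding protein gene. In the other direction, WNT5A-AS1 changed by -3.70 ± 0.36 (adjusted p = 0.000807) beside -2.65 for WNT5A, a non-canonical Wnt ligand gene. WNT5A-AS1 had only 3 reads in the knockout and 44 reads in the parental libraries in all. Other such rows did not move with the partner. PRKG1-AS1 changed by 0.86 ± 0.20 (edgeR adjusted p = 0.024) beside -2.33 for PRKG1. PRKAG2-AS1 changed by 1.75 ± 0.31 (edgeR adjusted p = 0.00853) beside -0.07 for PRKAG2.

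Of 55 tested rows named as divergent transcripts (suffix -DT), 9 rose and 4 fell, 23.6% beside 27.6% of all genes tested. Of 16 with the suffix -AS2, 2 rose and 1 fell (18.8%), too few to set against that share. PIK3CD-AS2 averaged 1.66 CPM in knockout cells and 0.131 CPM in the parental line, a log2 fold change of 3.63 ± 0.36, while PIK3CD, a catalytic subunit of phosphoinositide 3-kinase, changed by 1.31. NIPBL-DT, divergent from the cohesin loader gene NIPBL, averaged 11.9 CPM in knockout cells and 6.30 CPM in parental cells, a change of 0.92 ± 0.16 beside 0.08 for NIPBL. These rows were chosen after their values were seen.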
